A study of Mus musculus with 6 samples.

Results

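The long intergenic noncoding RNAs (lincRNAs) described here are the transcripts of 188 genes in fat of wild-type C57BL/6 mice, measured before grafting and 7 days after grafting. They are all rows of the deposited gene table whose biotype is given as lincRNA and whose mean over the 6 libraries was at least 20 normalized counts. The table lists 487 lincRNA genes, of which 299 were under that mean, among 12163 genes in all. The mean over both groups chose these genes. The authors' gene filter is not given in the sources used here, and since the groups did not overlap for 97.6% of the tested genes, the table is treated as one possibly selected for difference, so that a gene's absence from it is not read as a result.

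Libraries were made from total RNA extracted with Trizol, 3 from fat before grafting and 3 from fat on day 7 after grafting, and the submitters describe those of each group as biological replicates. All animals were wild type and of the same inbred strain. The labels give no depot, recipient site, sex or age, and do not say how many animals gave each library. A normalized count is a read count divided by the size factor of its library. Levels are given as mean ± SD with n = 3 per group, log2 fold changes compare grafts with fat before grafting on the log2(value + 1) scale, and a gene was called when its adjusted p in limma was under 0.05.

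LincRNAs are transcripts that lie between protein-coding genes, are mostly spliced and capped like messenger RNAs, and carry no long open reading frame. Some work in the nucleus, where they bind chromatin or splicing factors or act on the gene next door, and others are made mainly as hosts whose introns or exons release small nucleolar RNAs (snoRNAs) or microRNAs (miRNAs). Several are switched on in macrophages that meet a microbial or damage signal, a few are brown or white fat specific, and a few are expressed from only the maternal or paternal chromosome. Most of the genes described here have no known role: 164 of the 188 carry only a predicted-gene or clone name.

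Of the members, 11 hold a miRNA of RefSeq within their span on the same strand. The sequences are shown for some of the hosts whose values are described below. They are the mature sequences of RefSeq (GRCm38.p6), written 5′ to 3′, with the seed, bases 2 to 8, in capitals. H19 (chromosome 7, 142575529 to 142578143, minus strand, GRCm38) holds the miR-675 hairpin, and Meg3 (chromosome 12, 109541001 to 109571726, plus strand) holds miR-770 and miR-1906. Mirg (chromosome 12, 109729764 to 109749460, plus strand) holds 26 mature miRNAs with 25 different seeds, and 4 of them are shown, among them miR-453 and miR-496a-5p, which share the seed GGUUGCC. Mir155hg and Mir142hg are the host genes of miR-155 and miR-142a, both of which are abundant in blood cells.
mmu-miR-675-5p: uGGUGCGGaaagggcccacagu
mmu-miR-675-3p: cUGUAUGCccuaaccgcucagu
mmu-miR-770-5p: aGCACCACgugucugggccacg
mmu-miR-770-3p: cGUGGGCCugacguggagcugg
mmu-miR-1906: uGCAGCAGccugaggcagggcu
mmu-miR-453: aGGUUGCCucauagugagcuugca
mmu-miR-496a-5p: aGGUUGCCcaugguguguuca
mmu-miR-382-5p: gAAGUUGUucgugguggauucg
mmu-miR-410-3p: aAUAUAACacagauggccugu
mmu-miR-155-5p: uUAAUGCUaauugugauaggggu
mmu-miR-155-3p: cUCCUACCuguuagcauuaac
mmu-miR-142a-5p: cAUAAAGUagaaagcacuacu
mmu-miR-142a-3p: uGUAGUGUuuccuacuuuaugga
The libraries measured the host transcripts, and the mature miRNAs were not measured.

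The listed genes took 13027776 to 15924559 reads per library, and Spearman correlations of tested genes lay between 0.984 and 0.9923 within groups and between 0.7339 and 0.7756 between groups. The tissue labels were checked against marker lists. All 10 adipocyte markers fell, with a summed level of 324086 to 486496 normalized counts before grafting and 6424 to 25846 in grafts. All 8 tested macrophage markers rose (21193 to 23984, then 189062 to 198552), as did all 6 neutrophil markers (365 to 575, then 39595 to 76414) and all 5 markers of dividing cells (1084 to 1871, then 5761 to 7215). All 8 T and NK cell markers fell (3630 to 6078, then 271 to 729), and so did all 5 B cell markers (4826 to 10166, then 137 to 378). Of 8 fibroblast markers 4 rose and 2 fell, and of 2 tested endothelial markers 1 fell. None of these markers was at 0 in all libraries of a group, and no marker of skeletal muscle, epithelium or the male reproductive tract was in the table. In such bulk samples, fewer cells of a type and less RNA per cell cannot be told apart. The part of cell makeup in the lincRNA values below was not tested.

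All 188 lincRNA genes passed the filter on low values. In grafts 56 were higher and 96 lower, and 36 passed no test, with a median log2 fold change of -1.07. Over all 10854 tested genes 80.4% were called, 41.3% higher and 39.2% lower, and the median was 0.28. The values of the 3 grafts lay wholly above those of the 3 libraries before grafting for 64 lincRNAs and wholly below for 117, and the groups overlapped for 7. Among all tested genes the groups did not overlap for 97.6%, with grafts above in 49.6% and below in 48%. Calls with a change of at least 1 on the log2 scale numbered 137 among the lincRNAs, 21 were higher by at least 3 and 30 lower by at least 3, while over all tested genes these made up 53.5%, 6.27% and 8.53%. Calls were 36.8% higher for the lincRNAs and 51.3% higher for all genes, and these shares were 23.3% and 26.1% after rescaling each library to its 71 ribosomal protein genes (the ribosomal protein scaling), which moved the median of all tested genes from 0.28 to -0.46.

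**Figure D1:**
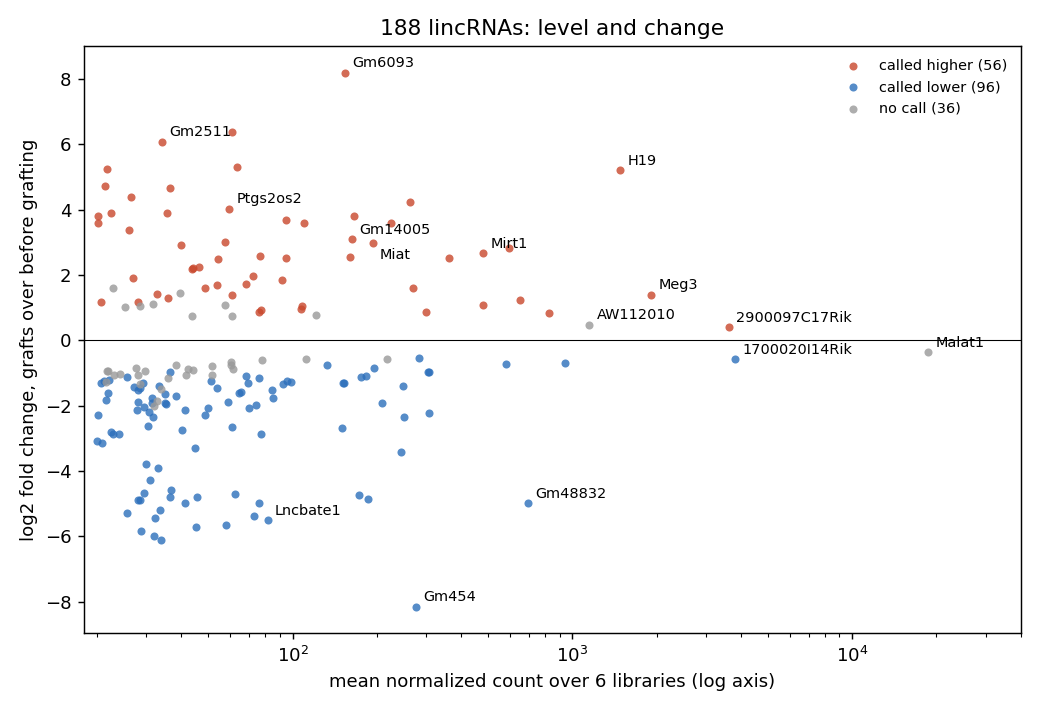
Each point is 1 of the 188 lincRNAs, with its mean normalized count over 6 libraries on a log axis and its log2 fold change in grafts over before grafting, coloured by its call in limma. The called falls (96) outnumber the called rises (56), and Malat1 lies far to the right of the others. Genes with 0 reads in a group are drawn at a fitted value that depends on the pseudocount.

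The rule on the mean fixed part of this picture. In 30 members the mean before grafting was under 20 and in 72 the graft mean was, so that these could enter only through the group in which they were high. The 86 members with at least 20 in both groups had 30 higher and 35 lower calls and a median of -0.67. In these 86, calls with a change of at least 1 numbered 50, 5 were higher by at least 3 and 2 lower by at least 3, so most of the changes of at least 3 were in members that entered through 1 group. Just inside the limit of 20 lay 1700047G03Rik (mean 20.02, 35.4 before and 4.7 in grafts) and Gm38171 (20.13, 2.0 and 38.3). Just outside lay Gm30918 (19.94, 35.3 and 4.6) and Gm44421 (19.73, 38.1 and 1.3).

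Protein-coding genes with a mean of at least 20 had 43.5% higher and 37.4% lower calls, with a median of 0.35. Most lincRNAs were scarce, with 95 of them under a mean of 50, and the values were therefore set side by side at matched levels. Between means of 20 and 50, 21.1% of 95 lincRNAs and 27.9% of 648 coding genes were higher, and 54.7% and 47.2% were lower. Between 50 and 100 the shares were 33.3% of 45 lincRNAs and 32.4% of 678 coding genes higher, and 48.9% and 46.8% lower. Between 100 and 200 they were 42.1% of 19 and 32.9% of 972 higher, and 47.4% and 43.0% lower. Between 200 and 1000 they were 43.5% of 23 and 41.8% of 3707 higher, and 52.2% and 37.5% lower. From 1000 up they were 50% of 6 and 54.5% of 3069 higher, and 16.7% and 31.4% lower. In both classes the share of higher calls was smaller at a mean of 20 to 50 than at 200 to 1000. The difference between the classes was not tested, and under the ribosomal protein scaling 19.7% of lincRNAs and 18.2% of coding genes were higher.

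**Figure D2:**
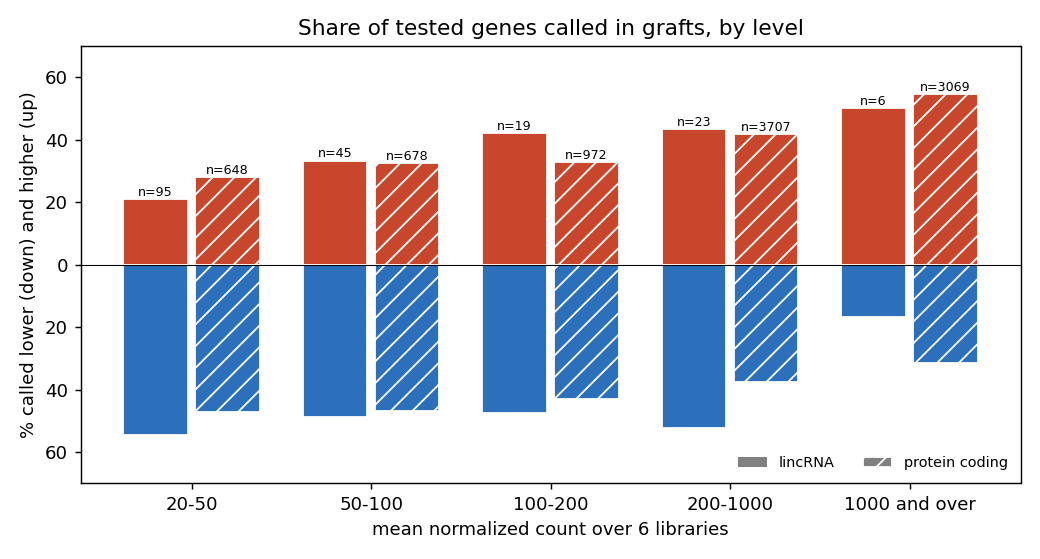
Bars give the percentage of tested lincRNAs (plain) and protein-coding genes (hatched) called higher (up, red) and lower (down, blue) in grafts, by mean normalized count. From 20 to 50, 54.7% of 95 lincRNAs and 47.2% of 648 coding genes were lower, and the n of each class stands above its bar.

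Malat1, a nuclear RNA of splicing speckles that nearly every cell makes, was by far the most abundant member. It lies on chromosome 19 (5795690 to 5802672, minus strand). Malat1 had 18109, 18776 and 26532 normalized counts before grafting and 16116, 15269 and 17452 in grafts. All 3 grafts lay below all 3 earlier libraries, and the difference did not pass the test (log2 fold change -0.36, SE 0.16, adjusted p = 0.272 in limma). Malat1 alone took 0.130% to 0.199% of the listed normalized total before grafting and 0.099% to 0.12% in grafts, and all 188 members together took 0.332% to 0.416% and 0.300% to 0.372%. Malat1 was called lower under the ribosomal protein scaling, at a log2 fold change of -1.10.

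2900097C17Rik, the mouse Norad gene, encodes a cytoplasmic RNA that binds Pumilio proteins and protects chromosome number. It had 3256, 3105 and 2957 normalized counts before grafting and 3946, 4341 and 4134 in grafts. The groups did not overlap, and the gene was called higher (log2 fold change 0.41, SE 0.09, adjusted p = 0.0129). This call was lost under all 4 other scalings and without before replicate 3 or graft replicate 2, and the direction turned to -0.33 under the ribosomal protein scaling. 1700020I14Rik went the other way, from 4650, 4419 and 4657 before grafting to 2859, 3076 and 3241 in grafts (log2 fold change -0.58, SE 0.09, adjusted p = 0.00217). Per kilobase of the deposited gene length, Malat1 was at 3027 normalized counts before grafting, 2900097C17Rik at 631.9 and 1700020I14Rik at 550.8. In grafts these levels per kilobase were 2331, 842.4 and 368.3. Of the other abundant members, Gm37494 went from 1157.2 ± 28.8 to 727.6 ± 130.5 and was called lower (log2 fold change -0.68, adjusted p = 0.00865). Gm42047 went from 597.1 ± 180.0 to 1054.9 ± 215.9 and was called higher (0.84, adjusted p = 0.0383), a call lost under all 4 other scalings and without before replicate 1 or 2 or graft replicate 1 or 3 (adjusted p 0.0984 to 0.153). A list drawn up for nuclear architecture had 4 tested genes, of which 2900097C17Rik is cytoplasmic, as said above. Of these only 2900097C17Rik rose as reported, while Firre (-1.55) and Kcnq1ot1 (-2.09), which are not members, fell. Beside them, 41.3% of all tested genes were higher and 39.2% lower.

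The 3 imprinted members, H19, Mirg and Meg3, rose, H19 most and Meg3 least, and under the ribosomal protein scaling the rise of Meg3 passed no test. H19, which is expressed from the maternal chromosome and is abundant in fetal tissue, had 74.0, 64.8 and 68.9 normalized counts before grafting. In grafts it had 1865, 1999 and 4809, which is 2890.7 ± 1662.1 against 69.2 ± 4.6 (log2 fold change 5.22, SE 0.33, adjusted p = 2.02e-05). Graft replicate 3 was the highest and the groups lay far apart. Per kilobase H19 went from 28.1 to 1175 normalized counts, a level in grafts that only AW112010 (1776) and Malat1 (2331) exceeded among the members. Igf2, the growth factor gene that lies 72623 bp from H19 and is expressed from the other parental chromosome, had 4.9 to 7.1 normalized counts before grafting and 0.0 to 1.9 in grafts, and was too low to be tested.

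Meg3, Rian and Mirg are consecutive maternally expressed transcripts of the Dlk1-Dio3 locus. Meg3, a growth-restraining RNA, had 858, 1355 and 903 normalized counts before grafting and 2003, 2417 and 3972 in grafts. The groups were apart and Meg3 rose by 1.40 (log2, SE 0.27, adjusted p = 0.00769 in limma). Under that scaling the value of Meg3 was 0.65 (adjusted p = 0.459). Mirg, whose miRNAs are listed above, had 17.7, 37.5 and 12.8 before grafting and 95.4, 130.9 and 166.2 in grafts, again without overlap (log2 fold change 2.58, SE 0.41, adjusted p = 0.0026). Rian, which starts 32214 bp beyond the end of Meg3 and is annotated as a processed transcript and hence is no member, went from 542.8 ± 120.8 to 3543.6 ± 1153.7 (2.68 on the log2 scale, adjusted p = 0.000133). Dio3, the paternally expressed gene of an enzyme that inactivates thyroid hormone, rose as well, from 6.6 ± 3.7 to 335.1 ± 186.5. Rtl1, another paternally expressed gene there, had 0.0 to 3.0 before grafting and 5.0 to 24.7 in grafts and was not tested.

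Of 6 tested RNAs in the list of imprinted noncoding transcripts, 4 rose and 2 fell. The rises were H19, Rian, Mirg and Meg3, and the falls were Peg13 (log2 fold change -1.83) and Snhg14 (-0.97), which are not lincRNAs in the table. Snhg14 lost its call whichever of the 6 libraries was left out. Under the ribosomal protein scaling 3 of the 6 were higher. Among 8 tested imprinted growth genes 4 rose and 2 fell. Beside both lists, 41.3% of all tested genes were higher and 39.2% lower. Igf2r, a receptor that clears IGF2, rose by 1.60 (from 2027.9 ± 133.3 to 6167.9 ± 450.3 normalized counts), and Mest, a marker of expanding fat, rose by 1.66, a call lost under the ribosomal protein scaling. Sgce, a sarcoglycan gene, fell by 0.97 on the log2 scale. After that rescaling 1 of these 8 genes was higher and 3 were lower.

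**Figure D3:**
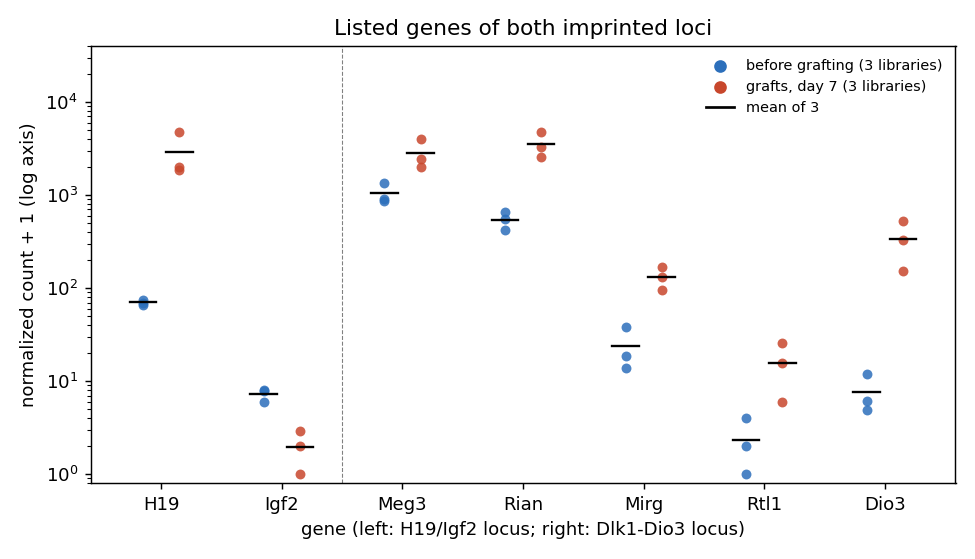
Points are the 3 libraries of each group for the listed genes of the H19/Igf2 locus (left) and of the Dlk1-Dio3 locus (right), as normalized count + 1 on a log axis, with a line at the mean. H19, Meg3, Rian, Mirg and Dio3 lie higher in all 3 grafts, whereas Igf2 lies at 0.0 to 1.9 normalized counts in grafts and 4.9 to 7.1 before.

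Ptgs2os2, Gm14005 and Mirt1, which are known from activated macrophages, other myeloid cells and injured tissue, rose in grafts. Ptgs2os2 (chromosome 1, 150159043 to 150164948, minus strand), also called lincRNA-Cox2, is induced by Toll-like receptor signals and tunes inflammatory genes. It had 6.9, 5.1 and 4.9 normalized counts before grafting and 67.3, 159.0 and 112.8 in grafts, without overlap (log2 fold change 4.03, SE 0.38, adjusted p = 0.000142). Ptgs2 itself, the gene of cyclooxygenase 2, lies 50816 bp away and rose by 8.55. Gm14005, known as Morrbid, lengthens the life of neutrophils, monocytes and eosinophils by holding down the death gene Bcl2l11. Gm14005 had 30.6, 33.4 and 35.4 before grafting and 306.3, 312.3 and 258.2 in grafts, a rise of 3.10 (SE 0.19, adjusted p = 1.52e-05). Bcl2l11, 15772 bp away, rose too, from 415.2 ± 68.8 to 2600.7 ± 552.0 normalized counts (log2 fold change 2.64).

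Mirt1, which was first described in infarcted heart muscle, had 149.9, 87.1 and 135.7 normalized counts before grafting and 425.8, 1054 and 1035 in grafts (log2 fold change 2.67, SE 0.37, adjusted p = 0.00127). Graft replicate 1 was the lowest of the grafts and still above every earlier library. 4833407H14Rik, a member on the opposite strand within the span of Mirt1, rose by 3.61, from 31.0 ± 12.2 to 417.9 ± 217.7. Whether the counting used strand is not known from the labels, so reads cannot be told apart where exons of such genes overlap. The whole spans of 80 members overlap an annotated gene, with 64 overlapping one on the opposite strand and 26 one on the same strand. Overlap of exons was not examined. Mirt2, which is annotated as antisense and is no member, had 0 reads before grafting and 341.4 ± 157.8 normalized counts in grafts.

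AW112010 is an interferon-responsive transcript of immune cells, reported to be translated into a small protein in macrophages. It had 971.3, 884.4 and 936.4 normalized counts before grafting and 809.5, 1774 and 1520 in grafts. Graft replicate 1 lay below all earlier libraries and the other grafts above them, so the groups overlapped and no call was made (log2 fold change 0.48, SE 0.26, adjusted p = 0.528). Without graft replicate 1 it was called higher (0.82), and it stood at -0.27 under the ribosomal protein scaling. Of 5 tested RNAs in the list of immune noncoding transcripts, 4 rose (Mirt1, Mirt2, Ptgs2os2 and Gm14005) and 0 fell. These counts were the same under the ribosomal protein scaling. Among all tested genes 41.3% were higher and 39.2% lower, and the list was chosen with earlier results of these data known. Ifngas1, a lincRNA of the same list, is not a member and was too low to be tested. It had 20.7, 7.1 and 13.8 normalized counts before grafting and 2.0, 4.8 and 2.0 in grafts, all lower than before. The summed macrophage and neutrophil markers given above rose in the same libraries, and their part in these 4 rises was not tested.

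The 2 hosts of blood-cell miRNAs did not move together. Mir155hg, whose miR-155 is induced in activated macrophages and lymphocytes, had 31.6, 13.2 and 29.5 normalized counts before grafting and 46.2, 88.3 and 112.8 in grafts. The groups did not overlap and it was called higher (log2 fold change 1.70, SE 0.44, adjusted p = 0.0341 in limma), but the call was lost when any library other than graft replicate 1 was left out (adjusted p 0.0511 to 0.126). It was lost as well with equal listed totals (adjusted p = 0.051), with equal upper quartiles (0.0645) and under the ribosomal protein scaling (log2 fold change 0.97, adjusted p = 0.436). Mir142hg, host of a miRNA found throughout the blood lineages, had 357.9, 247.2 and 183.9 before grafting and 152.7, 201.7 and 163.2 in grafts. Its groups overlapped and no call was made (log2 fold change -0.56, adjusted p = 0.283). Mir142hg has a deposited length of only 269 bp, and per kilobase it stood at 977.8 before grafting and 641.4 in grafts, among the highest of all members. Gm37233, the host of miR-5103, was called higher at 71.8 ± 17.3 before and 142.6 ± 38.5 in grafts (log2 fold change 0.97, adjusted p = 0.0398), a call lost under all 4 other scalings and without any library but before replicate 1.

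**Figure D4:**
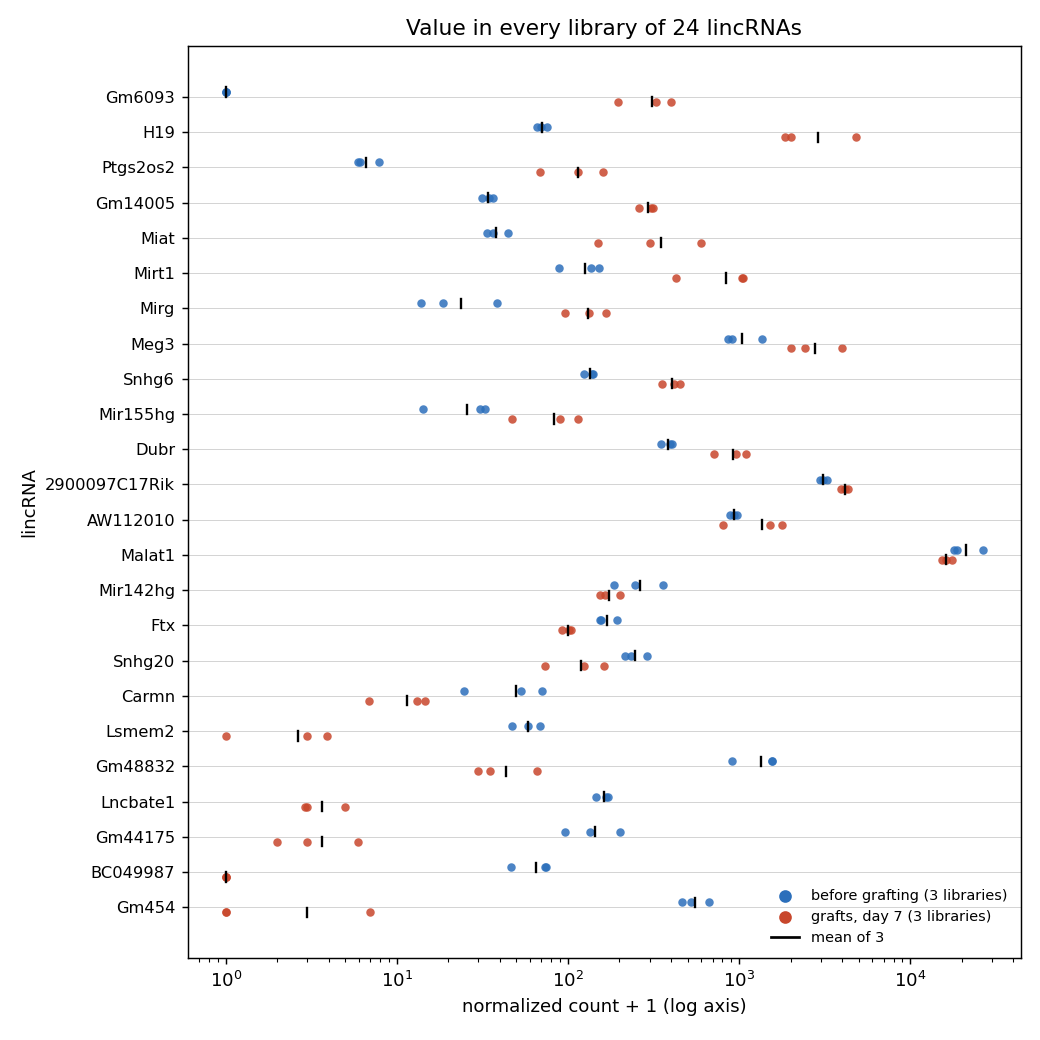
Each row is 1 of 24 named lincRNAs with its value in the 3 libraries before grafting (blue) and the 3 grafts (red), as normalized count + 1 on a log axis, with a bar at each mean. The groups lie apart in every row except AW112010 and Mir142hg, and Gm6093 was at 0 before grafting and BC049987 at 0 in grafts.

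Of 7 members that host small nucleolar or Cajal body RNAs, 2 rose (Snhg6 and Snhg18), 4 fell (Snhg20, A830008E24Rik, 9430037G07Rik and 2900076A07Rik) and 2700038G22Rik passed no test (log2 fold change -0.89, adjusted p = 0.0687). As shares of all tested genes, 41.3% were higher and 39.2% lower. Under the ribosomal protein scaling Snhg18 stood at 0.11 and passed no test. Snhg6, whose intron carries a box C/D snoRNA, had 123.3, 136.8 and 139.7 normalized counts before grafting and 413.8, 451.0 and 354.1 in grafts (log2 fold change 1.60, SE 0.15, adjusted p = 0.000147). Snhg18 rose by 0.86, from 211.9 ± 17.4 to 387.6 ± 66.3. Snhg20 went down, from 215.9, 287.7 and 233.1 to 160.7, 72.7 and 123.6 (log2 fold change -1.10, SE 0.29, adjusted p = 0.0346), and its call was lost when any library other than graft replicate 1 was left out (adjusted p 0.0556 to 0.133). A830008E24Rik went from 71.2 ± 2.1 to 1.6 ± 0.6 (log2 fold change -4.80, adjusted p = 3.68e-05) and 9430037G07Rik from 53.3 ± 8.9 to 9.9 ± 3.4 (-2.35, adjusted p = 0.00157). 2900076A07Rik, which also hosts miR-1839, went from 134.6 ± 40.2 to 56.3 ± 17.4 (-1.24, adjusted p = 0.022), a call lost without before replicate 3 or graft replicate 1 or 2 (adjusted p 0.0558 to 0.101). A second list holds hosts chosen by name, not all of them members, and lacks those without a host name: of its 9 tested genes 6 rose and 2 fell. Many such hosts are spliced messenger-like RNAs that ribosomes read and nonsense-mediated decay removes. Rescaled in this way, 1 of the 9 was higher and 2 were lower, and Gas5, Zfas1, Snhg1 and Snhg8 changed sign. The calls of these 4 non-members were lost under the other 3 scalings too, which left 2 of the 9 higher. Of 6 tested proteins of the snoRNA particle 4 rose and 1 fell, led by Nhp2 (1.49), and with that scaling 1 was higher and 1 lower.

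Miat, also known as Gomafu, is a nuclear RNA of nerve and heart that binds splicing factors. Miat had 35.5, 43.6 and 32.5 normalized counts before grafting and 148.6, 302.6 and 599.5 in grafts (log2 fold change 2.99, SE 0.45, adjusted p = 0.00207). Graft replicate 3 drew the graft mean up to 350.2, which was 225.6 without it, and all grafts stayed above all earlier libraries. Dubr, a regulator of muscle precursor differentiation, rose by 1.24 (404.3, 395.1 and 349.2, then 710.1, 958.1 and 1093). The rise of Dubr was 0.50 under the ribosomal protein scaling and passed no test. Lockd, which lies downstream of the cell cycle inhibitor gene Cdkn1b, stood at 16.6 ± 5.6 and 33.9 ± 8.7 and was not called (log2 fold change 1.01, adjusted p = 0.133). All 5 tested markers of dividing cells rose in the same libraries.

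Several named lincRNAs fell. Lncbate1, which is enriched in brown fat and needed to form and keep brown adipocytes, had 166.6, 170.2 and 144.6 normalized counts before grafting and 4.0, 1.9 and 2.0 in grafts (chromosome 8, 108553252 to 108584595, minus strand). The groups lay far apart and the fall was 5.51 on the log2 scale (SE 0.33, adjusted p = 1.51e-05). All 10 adipocyte markers fell in the same libraries, and their part in this fall was not tested. Carmn, a transcript of smooth muscle and cardiac precursors, had 23.7, 69.9 and 52.1 before grafting and 12.1, 13.6 and 5.9 in grafts. Carmn was called lower (log2 fold change -2.05, SE 0.49, adjusted p = 0.0219), and the call was lost without before replicate 2, before replicate 3 or graft replicate 3 (adjusted p 0.0654 to 0.104). Ftx, a gene of the X inactivation centre that hosts miR-374b and miR-421, had 167.2 ± 22.6 before grafting and 98.5 ± 6.5 in grafts. Ftx was called lower (log2 fold change -0.75, adjusted p = 0.0223), and the call was lost without before replicate 1 or 3 or without graft replicate 2 or 3 (adjusted p 0.0531 to 0.0981). Of 4 members named for a coding gene on the opposite strand, Fam120aos fell by 1.11 and Lppos fell by 1.47 on the log2 scale, and Lppos lost its call without before replicate 1. Ino80dos passed no test (log2 fold change -0.92, adjusted p = 0.102), and Ptgs2os2 rose, as given above. Smkr-ps, by its name a pseudogene, fell by 1.89 on the log2 scale (44.7 ± 3.5 to 11.5 ± 3.1, adjusted p = 0.00342).

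The largest rises were mostly in genes of unknown role. Gm6093 (chromosome 13, 33562486 to 33569317, minus strand) had no read before grafting (0 in each of 3 libraries) and 326.4, 194.0 and 400.6 normalized counts in grafts, at least 103-fold higher when 3 reads in each library are taken as the floor. By the same bound Gm2511 was at least 22.9-fold higher and 4933412O06Rik at least 14.5-fold higher, with 0 reads before grafting in each. Gm37800 had 2 reads in all before grafting and 368 in grafts, a ratio of 184 with an exact 95% interval of 50.7 to 1530. Such intervals and bounds cover counting error only. Gm48065 rose by 5.30 (2.3 ± 1.2 to 124.6 ± 15.7) and 4732465J04Rik by 4.39 (1.3 ± 0.6 to 51.5 ± 24.1). Zfp469 rose by 4.24, from 27.6, 36.5 and 15.7 to 404.7, 582.8 and 508.4. Its RefSeq entry is protein-coding, as are those of Gm2511, Gm46430, Gpr141b, Gm32856 and Lsmem2, whereas 121 members are listed by RefSeq as long noncoding and 60 have no RefSeq symbol.

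Among the largest falls was Gm454 (chromosome 5, 138203609 to 138207308, minus strand), with 670.5, 460.9 and 523.3 normalized counts before grafting and 6.0, 0.0 and 0.0 in grafts (log2 fold change -8.15, SE 0.72, adjusted p = 0.000109). Per kilobase Gm454 was at 734.5 before grafting, a level exceeded among the members only by Malat1, AW112010 and Mir142hg. Gm48832 had 912.1, 1561 and 1551 before grafting and 65.3, 33.9 and 28.7 in grafts, or -4.99 on the log2 scale (SE 0.33, adjusted p = 2.59e-05). In 3 members grafts had 0 reads: 2900052N01Rik was at least 22.9-fold lower, BC049987 at least 21.6-fold lower and Gm40761 at least 19.4-fold lower. Gm30173 had 1 read in grafts and 153 before, a ratio of 152 (exact 95% interval 26.8 to 6030), and Gm26671 had 2 and 192, a ratio of 95.2 (26.0 to 791). Gm32200 and Gm3289 fell as well (log2 fold changes -5.65 and -5.71). Lsmem2, whose RefSeq entry is a membrane protein, fell by 4.67, and Gpr141b, a receptor gene in RefSeq, by 2.64.

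The change of each lincRNA was set beside that of its nearest coding gene. The nearest protein-coding gene by start site was listed and tested for 116 members, and in 75 of these pairs both genes were called. In 58 of the 75 (77.3%) the direction was the same: 31 pairs were both higher and 27 both lower, and in 3 the lincRNA was higher with a lower neighbour and in 14 lower with a higher neighbour. Across the 116 pairs Pearson's r of the log2 fold changes was 0.60 and Spearman's rho 0.60, a description of pairs measured in the same libraries. For 4747 coding genes paired with their own nearest coding gene, 64.3% of 3090 called pairs went the same way, with r = 0.34. The lincRNA share was 77.3% for starts within 5000 bp (22 called pairs) and 81.0% beyond 50000 bp (21 called pairs), and coding pairs within 5000 bp had 68.1% of 593 called pairs, with r = 0.41. With other scalings the share was 78.8% to 93.7% of the lincRNA pairs and 65.0% to 76.2% of the coding pairs, and in both the ribosomal protein scaling gave the highest share. The difference from coding pairs was not tested. The lincRNA pairs include members that entered through 1 group only, and no count was made for the 86 with at least 20 in both groups. A coding gene could stand in more than 1 pair, as Zfp36l1 and Ctsc did. In some pairs the genes overlap, such as Gm26522 and Ctsc, and whether they share reads is not known.

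**Figure D5:**
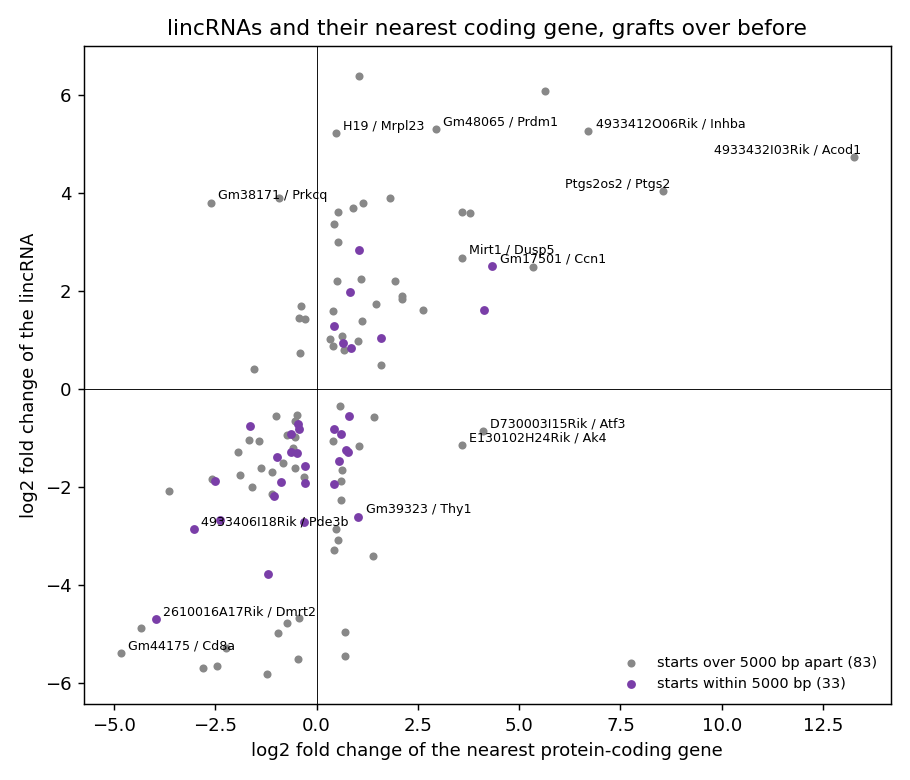
Each point is 1 of 116 lincRNAs, with the log2 fold change of its nearest protein-coding gene on the horizontal axis and its own on the vertical axis, both grafts over before grafting. Most points lie in the lower left and upper right quadrants (58 of 75 called pairs), and the purple points are the 33 pairs with starts within 5000 bp.

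The following are examples of neighbours that rose together, and a shared role of the 31 such pairs was not tested. Others of the 31 have neighbours such as Tomm20, Mrpl33 and Lsm8. 4933432I03Rik and Gm34643 lie 13174 and 22520 bp from Acod1, whose enzyme makes the antimicrobial metabolite itaconate, and all 3 genes rose. Gm34643 is outside the 116 pairs, since its nearest coding gene by start, Kctd12, was not listed. Its span overlaps that of 4933432I03Rik on the opposite strand, and whether the overlapping lincRNAs share reads is not known. Gm34643 had 1.0, 4.1 and 1.0 normalized counts before grafting and 44.2, 73.7 and 95 in grafts, and 4933432I03Rik went from 2 reads to 128, a ratio of 63.8 (exact 95% interval 17.3 to 532). Gm17501 starts 331 bp from Ccn1, a matrix-associated signalling protein induced in wounds, and is transcribed away from it. Gm17501 had 21.7, 41.5 and 22.6 before grafting and 138.6, 174.6 and 171.1 in grafts, a rise of 2.51 (SE 0.29, adjusted p = 0.00049), while Ccn1 rose by 4.34. Gm48065 starts 73673 bp from Prdm1, a transcriptional repressor active in terminal differentiation, which rose by 2.94. 4933412O06Rik has Inhba, a subunit gene of activin A, as its nearest coding gene, 209221 bp away, and Inhba rose by 6.71.

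Examples of neighbours that fell together are given next, and a shared role of the 27 such pairs was not tested. Others of the 27 have neighbours such as Kmt2e, Ino80d and Ppa2. 4933406I18Rik starts 120 bp from Pde3b, the phosphodiesterase through which insulin restrains lipolysis. It had 63.1, 30.4 and 32.5 normalized counts before grafting and 8.0, 8.7 and 1.0 in grafts, a log2 fold change of -2.86 beside -3.03 for Pde3b, and lost its call without before replicate 1 or 3 (adjusted p 0.0614 to 0.0863). 2610016A17Rik starts 158 bp from Dmrt2, a transcription factor gene, and went from 117.3, 118.5 and 124.9 to 6.0, 3.9 and 2.0, a log2 fold change of -4.70 beside -3.96 for Dmrt2. Gm44175 lies 12598 bp from Cd8a, the co-receptor gene of cytotoxic T cells. Gm44175 had 200.2, 95.2 and 133.8 before grafting and 2.0, 1.0 and 4.9 in grafts, with a log2 fold change of -5.39 beside -4.83 for Cd8a. In both genes before replicate 1 was the highest and replicate 2 the lowest of the earlier libraries. Gm30211, which overlaps the immunoglobulin kappa constant and joining segments on the same strand, fell from 87.8 ± 32.2 to 3.6 ± 4.6, beside the B cell markers given above.

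The 3 and 14 called pairs of opposite direction included the following 4. Gm39323 starts 2325 bp from Thy1, a surface protein of T cells and fibroblasts, and fell by 2.62 (59.2, 45.6 and 54.1, then 6.0, 9.7 and 7.9) while Thy1 rose by 1.03. Gm38171 was called higher and its neighbour Prkcq, a kinase of T cell activation, fell by 2.60, but the graft values of Gm38171 were 28.1, 13.6 and 73.2, with a mean of 38.3 that was 20.8 without graft replicate 3, and its call was lost without before replicate 1. E130102H24Rik, the host of miR-101a, fell by 1.14, with its nearest coding gene Ak4, a mitochondrial adenylate kinase, higher by 3.58, and lost its own call without before replicate 1 or 2. Lppos fell while Lpp, the gene it overlaps in opposite orientation, rose by 0.56. The ribosomal protein scaling ended the calls of Thy1 and Lpp and turned the direction of Lpp. Of the other members closest to a coding start, 4 fell, 1 rose and 2 passed no test. The falls were 5930430L01Rik (-1.98), 4933406C10Rik (-2.73), 1110019D14Rik (-1.30) and Gm43254 (-1.39, adjusted p = 0.0406), the last lost without any library but graft replicate 1. 4833418N02Rik rose by 0.93, a call lost under the ribosomal protein scaling and without before replicate 3. 6030443J06Rik, 3 bp from Orc5, stood at -0.83 (adjusted p = 0.114), and 1110006O24Rik, 92 bp from Rab35, at -0.93 (adjusted p = 0.128). Of the neighbours of these members, 2610001J05Rik, 8 bp from 1110019D14Rik, rose by 0.77, Rab35 by 0.60 and Ttc7, beside 4833418N02Rik, by 0.66. Ppa2, beside Gm43254, fell by 0.98. Orc5 (-0.44) and Sypl, beside 4933406C10Rik (-0.31), passed no test. Gm42791, beside 5930430L01Rik, was too low to be tested.

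Promoters, from 250 bases before to 50 after the start, were found in RefSeq (GRCm38.p6) for 83 of the 188 members within 1000 bp of their GENCODE start, 24 of them called higher and 44 lower. They were searched on both strands for fixed letters of factors that act in inflammation and fat. The AP-1 letters TGANTCA stood in 5 of 24 promoters of higher members, in 2 of 44 of lower members and in 7.9% of all 27025 promoters. The C/EBP letters TTGCNNAA stood in 7 of 24, in 5 of 44 and in 10.8% of all, and the PU.1 letters GAGGAAGT in 4 of 24, in 2 of 44 and in 3.3%. An NF-kB motif stood in 2 of 24, 2 of 44 and 1.4%, the E-box CACGTG in 3 of 24, 8 of 44 and 7.2%, the CRE letters TGACGTCA in 2 of 24, 2 of 44 and 1.9%, and a PPAR direct repeat in 0 and 0 and 0.4%. The CRE letters hold no match to the AP-1 letters. A match is a description of sequence only, and the differences were not tested. The median observed over expected CpG ratio was 0.32 for higher members, 0.62 for lower members and 0.39 for all promoters.

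The promoters of 6 members described above are shown 5′ to 3′ on the strand of the gene, with matches to these motifs in capitals. They were picked by hand, and not all of the largest changes are among them. The promoters of Gm2511 and 4933432I03Rik, which rose, hold none of these motifs. Neither do those of 2900052N01Rik, BC049987, Gm32200 and Gm30173, which fell. Mirt1 holds AP-1 and PU.1 letters, Gm6093 AP-1 and C/EBP letters, Gm34643 AP-1 and NF-kB letters, and Ptgs2os2 and Gm454 C/EBP letters. Gm17501, which shares its start region with Ccn1, holds none of the motifs in this window and has a CpG ratio of 0.91, against 0.15 for Mirt1, 0.07 for Gm6093 and 0.00 for Gm454.
Mirt1 (chr19:53464747-53465046, minus strand): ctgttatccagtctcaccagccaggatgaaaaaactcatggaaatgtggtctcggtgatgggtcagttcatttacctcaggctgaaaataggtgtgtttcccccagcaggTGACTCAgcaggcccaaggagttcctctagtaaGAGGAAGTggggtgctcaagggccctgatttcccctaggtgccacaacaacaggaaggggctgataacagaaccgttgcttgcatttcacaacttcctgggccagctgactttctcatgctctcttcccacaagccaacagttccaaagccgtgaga
Gm6093 (chr13:33569268-33569567, minus strand): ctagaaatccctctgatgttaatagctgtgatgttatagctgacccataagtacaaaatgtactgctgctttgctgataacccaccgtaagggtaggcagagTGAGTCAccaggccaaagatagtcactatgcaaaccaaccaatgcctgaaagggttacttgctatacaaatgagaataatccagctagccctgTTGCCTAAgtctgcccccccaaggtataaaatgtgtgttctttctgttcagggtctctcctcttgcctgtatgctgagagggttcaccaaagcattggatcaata
Gm34643 (chr14:103012625-103012924, plus strand): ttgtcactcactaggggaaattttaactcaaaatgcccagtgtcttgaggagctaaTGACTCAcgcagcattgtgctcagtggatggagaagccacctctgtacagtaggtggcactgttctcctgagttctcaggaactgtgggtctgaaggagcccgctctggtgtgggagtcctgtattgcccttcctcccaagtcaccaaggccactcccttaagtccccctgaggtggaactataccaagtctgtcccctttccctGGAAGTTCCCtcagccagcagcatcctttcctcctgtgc
Ptgs2os2 (chr1:150164899-150165198, minus strand): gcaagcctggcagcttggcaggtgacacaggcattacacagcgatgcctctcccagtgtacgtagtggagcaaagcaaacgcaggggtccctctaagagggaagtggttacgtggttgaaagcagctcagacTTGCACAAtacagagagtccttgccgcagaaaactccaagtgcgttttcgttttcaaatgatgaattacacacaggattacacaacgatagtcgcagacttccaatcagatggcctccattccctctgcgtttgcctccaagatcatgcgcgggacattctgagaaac
Gm17501 (chr3:145649827-145650126, plus strand): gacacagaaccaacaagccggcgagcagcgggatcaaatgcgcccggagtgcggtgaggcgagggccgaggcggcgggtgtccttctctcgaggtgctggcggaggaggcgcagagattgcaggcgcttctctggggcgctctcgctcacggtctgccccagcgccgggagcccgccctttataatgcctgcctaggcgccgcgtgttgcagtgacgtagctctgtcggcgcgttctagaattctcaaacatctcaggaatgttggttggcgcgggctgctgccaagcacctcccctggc
Gm454 (chr5:138207295-138207594, minus strand): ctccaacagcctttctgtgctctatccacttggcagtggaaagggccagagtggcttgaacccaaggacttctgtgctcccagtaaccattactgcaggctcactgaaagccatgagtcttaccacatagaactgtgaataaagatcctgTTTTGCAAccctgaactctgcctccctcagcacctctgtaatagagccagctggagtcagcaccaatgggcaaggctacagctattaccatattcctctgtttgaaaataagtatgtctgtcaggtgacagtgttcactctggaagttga
In Mirt1 the AP-1 match begins 140 bases before the start and the PU.1 match 107 before it, and in Gm6093 the AP-1 match begins 148 and the C/EBP match 55 bases before the start.

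The genes named here that process noncoding RNAs had smaller SEs than most lincRNAs, so smaller changes could be called in them. The SE was 0.09 for Rbm7 and 0.1 for Dicer1, against a median of 0.33 for the 188 lincRNAs. Sizes of change are therefore not compared. Of 6 tested members of the nuclear exosome and its adaptors, which degrade nuclear noncoding RNA, 2 rose (Rbm7 by 0.70 and Exosc9 by 0.52, the latter lost without any 1 library) and 0 fell, while under the ribosomal protein scaling 0 rose and 2 fell. Dicer1, which cuts miRNA precursors, fell by 0.56 on the log2 scale. Genes of these lists outside the table were not analysed here. As reported, 41.3% of all tested genes were higher and 39.2% lower.

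Transcript structure was compared as well. By merged exons in GENCODE M21, 34 members had 1 exon block and 152 had 2 or more. Of the members with 1 block 6 were higher and 19 lower, and 28 of 34 had a negative log2 fold change. Of the others 50 were higher and 75 lower, with 92 of 152 negative, and the medians were -1.08 and -1.06. Over all tested genes 41.3% were higher and 39.2% lower. The difference by exon blocks was not tested. The members were spread over the genome, with the most on chromosomes 5 (21) and 1 (20).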

How the data were processed

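RNA sequencing of 6 libraries was analysed from the authors' deposited gene table and per-library tables, which hold the same values. Each deposited value is a signal per gene: in every library 100% of them were whole multiples of 1 step within 0.01 reads (steps 0.96979 to 1.01304), that is, read counts divided by 1 size factor. Printed reads are the values divided by that step. The deposited gene lengths (unit: other, base pairs) were used for levels per kilobase, and the group mean columns of the table were left aside. Per the submitters' processing notes the tools and builds include Bowtie 0.12.2, HISAT2 2.0.5, mm8 and mm9. Coordinates in the table are those of GRCm38, since 12151 of 12163 genes were found in GENCODE M21 and 12029 lay within 1000 bp of it. The sources used here do not give the counter, the strand setting or the gene filter. Depth beyond the listed genes is unknown.

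The log2 of the deposited value plus a pseudocount of 1 entered limma 3.58.1 under R 4.3.3 (mean trend, robust, two-sided, group as the only term) for 10854 genes with at least 10 in at least 3 libraries. P-values were adjusted (Benjamini-Hochberg) over 55450 annotated genes, those outside the table entering at the highest p, with a threshold of 0.05. The variance prior rests on the listed genes, which may have been selected for difference. On simulated data 72% of 100 changes of size 1 and 100% of 100 changes of size 2 (log2) were called, with 1 false call in 10594 unchanged genes. In that simulation only these genes were changed and every gene had the same dispersion, without selection for difference. In the data 80.4% of the tested genes were called, so these shares do not carry over to the data. Other steps used scipy 1.17.1, pandas 2.3.3 and numpy 2.4.6 (Python 3.11.15).

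Named were the 10 most abundant members, the 10 largest called rises and falls, members with names of their own or in a role list, up to 10 hosts of small RNAs, the 10 closest to a listed coding gene, neighbours of named members and up to 3 genes of each related list. Gm17501, Gm39323, Gm38171, E130102H24Rik, Gm30211, Gm46430, Gm32856, A830008E24Rik, 9430037G07Rik, 2700038G22Rik and 4833407H14Rik were named after their values were seen. The members and all lists were chosen with earlier results of these data known. Alternatives were 4 scalings (median ratios, listed totals, upper quartiles and ribosomal protein genes at no change), 2 pseudocounts, no filter, adjustment over tested genes only, a replicate block and leaving out each library. Folds against a group with 0 reads are bounds at 3 reads in each library, and ratios with 1 to 3 reads have exact binomial intervals. Some genes of the lists are not reported here.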

Additional observations from a re-analysis of the deposited data

How the results depend on the processing

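Over 15 alternatives, 97 of the 152 called lincRNAs were called in the same direction every time. With ribosomal protein genes at no change, 1927 of all genes and 37 lincRNAs were called higher, where 4479 and 56 are reported, and the values of 2900097C17Rik (-0.33) and AW112010 (-0.27) changed sign. The other alternatives kept every count of calls within 1.5 times of the reported one. Calls were 36.8% higher for the lincRNAs as reported and 31.3% to 32.9% with the other scalings, which brought the median of all tested genes to 0.09 to 0.17. Leaving out each library gave 112 to 137 called lincRNAs (47 to 51 higher, 65 to 87 lower) and 7080 to 8144 called genes. Adjustment over tested genes only called 184 lincRNAs. The replicate block called 124 lincRNAs (47 higher, 77 lower) and 7556 genes. Correlations of deviations between same-numbered libraries were -0.157, -0.127 and 0.0407, so the numbers were not taken as pairs. The planned edgeR and DESeq2 fits were not run, since a check of units did not accept the recovery of whole reads for 2 graft libraries. The step of these libraries lies near 1 on the scale of that check. The reads, bounds and intervals printed above rest on the recovery all the same. Levels near 20 normalized counts rest on few reads, and depth outside the listed genes is unknown.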

Other observations

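Below the mean of 20, 299 further lincRNA genes were listed, of which 86 had values high enough to test. Of these 28 were higher and 47 lower in grafts, at a median of -1.93 on the log2 scale, and the groups did not overlap in any of them. Over all tested genes 41.3% were higher and 39.2% lower, and the groups did not overlap for 97.6%. At so low a mean, the filter of at least 10 in at least 3 libraries can be met by 1 high group alone. The separation and the median are therefore not read as a result. Antisense transcripts with a mean of at least 20 numbered 158, of which 29 were higher (18.4%) and 86 lower (54.4%), with a median of -1.25. The lincRNAs over that mean had 29.8% higher and 51.1% lower calls. With ribosomal protein genes at no change, 10.8% of these antisense transcripts and 19.7% of the lincRNAs were higher. No test of these differences was made.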
